A study of Mus musculus with 12 samples.

Results

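The miR-465 family of the mouse is a group of near-identical microRNAs encoded side by side on chromosome X. Its members were taken as every row of the count table whose name was miR-465 with a letter and an arm, and 5 of the 1549 rows met that rule: mmu-miR-465a-3p, mmu-miR-465a-5p, mmu-miR-465b-5p, mmu-miR-465c-5p and mmu-miR-465d-5p, where mmu stands for mouse. The miR-465d-5p row held 8 counts over all 12 libraries and did not pass the filter on low counts, so 4 of the 5 rows were tested. Over all libraries mmu-miR-465a-3p held 109744 counts, mmu-miR-465c-5p 94860, mmu-miR-465b-5p 33736 and mmu-miR-465a-5p 4361. The prefix is left out from here on.

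Small RNA had been sequenced from cells of 5 groups. There were 3 lines of androgenetic haploid embryonic stem cells (ESC), which carry only a paternal chromosome set: A129-2 with 2 libraries, A129-6 with 3 and A129-17 with 2. R1, a diploid ESC line, had 2 libraries. Round spermatids (RS, 3 libraries), the haploid germ cells that follow meiosis, were sorted from testes of 129Sv males whose age and number the labels do not state. All samples carried the labels WT and Sorting, and all cells were collected by fluorescence-activated sorting, with Hoechst staining described for the haploid lines and for the testis cells. The culture text of the labels describes the haploid lines, which were derived and grown with LIF and 2i (PD0325901 and CHIR99021), first in a medium with serum replacement and then in one with serum. Replicates were described as independent sorts, with nothing on whether they came from separate cultures or animals. Every SD and p-value here therefore rests on a spread between samples that may be technical. With 1 diploid line, a p-value against R1 measures the spread between libraries and not between diploid lines.

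A microRNA precursor folds into a hairpin, and Drosha and Dicer cut it into a duplex whose strands, named 5p and 3p after the side of the hairpin they come from, can each enter an Argonaute protein. Bases 2 to 8 of the loaded strand form the seed, the part that pairs with target messenger RNAs. The miR-465 precursors belong to a fast-evolving X-linked cluster between Slitrk2 and Fmr1 whose miRNAs are known mostly from male germ cells. Which of a duplex's strands is retained can differ between precursors and between cell types.

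The mature sequences are shown because they decide which rows can be told apart. They are RefSeq's, with the GRCm38.p6 annotation, written 5′ to 3′ with the seed in capitals.
miR-465a-5p: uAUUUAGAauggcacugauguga
miR-465b-5p: uAUUUAGAauggugcugaucug
miR-465c-5p: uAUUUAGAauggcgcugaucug
miR-465d-5p: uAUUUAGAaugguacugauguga
miR-465a-3p, and equally miR-465b-3p and miR-465c-3p: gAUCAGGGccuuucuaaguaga
miR-465d-3p: uGAUCAGGgccuuucugaguaa

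The 4 names of the 5p arm shared the seed AUUUAGA, and 3 names of the 3p arm shared AUCAGGG. Neither seed occurred in any other of the 1679 mature mouse sequences in the RefSeq table, and the seed of miR-465d-3p, GAUCAGG, is the same stretch read from a start 1 base further upstream. Counting positions from 1 at the 5′ end of the first-named miRNA, miR-465a-5p differed from miR-465b-5p by C13U, A14G and G20C, and from miR-465c-5p by A14G and G20C. The closest pairs differed by 1 substitution, U13C from miR-465b-5p to miR-465c-5p and C13U from miR-465a-5p to miR-465d-5p, apart from any difference in length. All of these positions lie outside the seed. Mismatches allowed in mapping and the handling of reads with several matches are not given in the sources used here. For that reason the split of reads between miR-465b-5p and miR-465c-5p, and between miR-465a-5p and miR-465d-5p, is uncertain.

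The 3p row is a different case, because its sequence is identical in 5 precursors. RefSeq places 6 precursors on the minus strand of chromosome X within 16.5 kb, and no other annotated gene overlaps any of them. From high to low coordinates, which is the direction of transcription, they are Mir465 (chrX:66839052-66839125), the source of miR-465a-5p, then Mir465b-2 (chrX:66835764-66835842), Mir465c-2 (chrX:66832517-66832597), Mir465b-1 (chrX:66829202-66829280), Mir465c-1 (chrX:66825955-66826035) and Mir465d (chrX:66822656-66822713), all in GRCm38.p6. Between 3166 and 3241 bases separate neighbours. Mir465b-1 and Mir465b-2 have the same hairpin sequence, as do Mir465c-1 and Mir465c-2. The table holds 1 row for this 3p sequence, named miR-465a-3p, which can carry reads of Mir465, both Mir465b and both Mir465c copies; below it is called the 3p row. The nearest protein-coding genes were Slitrk2, 161.3 kb away on the side of lower coordinates, and Gm1140, 843.8 kb away on the other side. No row for miR-465b-3p, miR-465c-3p or miR-465d-3p was analysed here.

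Depth differed between the kinds of cell. The ESC libraries held 3709786 to 9176080 counts and the RS libraries 155232 to 243714, so 3 counts, taken as the limit of detection, corresponded to 0.327 to 0.809 CPM (counts scaled to one common total per library) in ESC and to 12.3 to 19.3 CPM in RS. Intervals and limits here cover counting error only, since PCR reads without molecular identifiers are not independent molecules. Marker miRNAs matched the labels: the 6 ESC markers (miR-290 cluster and miR-302a) summed to 76303 to 138318 CPM in the haploid lines, 191474 to 191905 in R1 and 57.4 to 2551 in RS, and the 3 male germ cell markers (miR-34b-5p, miR-34c-5p and miR-449a-5p) to 52.0 to 306, 247 to 268 and 79938 to 293740. miR-302a-3p was at 0 in RS, and miR-34b-5p at 0 in A129-6 and A129-17. The arms of miR-202, a Sertoli cell miRNA, summed to at most 0.412 CPM in any ESC library and 90.0 to 142 CPM in RS, and the 4 fibroblast markers, which feeder cells and testis interstitium also express, gave 5803 to 26519 CPM in the haploid lines, 13293 to 15195 in R1 and 13825 to 65647 in RS. Most of the fibroblast sum was miR-143-3p, with means of 15533, 8981 and 9404 CPM in A129-2, A129-6 and A129-17 and 14091 in R1. For miR-214-3p the means were 726, 437 and 271 in these lines, 13.9 in R1 and 41.4 in RS. For miR-199a-3p they were 231, 131 and 70.6 in the lines and 60.6 in R1. miR-145a-5p went the other way, at 34.6, 31.0 and 18.6 against 78.1 in R1. The 3 blood and endothelial markers gave 45.2 to 182 CPM in the haploid lines, 246 to 268 in R1 and 1224 to 13167 in RS. On the first 2 principal components of the ESC libraries, A129-6 replicate 3 lay beside A129-17 and not beside the other A129-6 libraries. It also had the lowest TMM factor of the ESC libraries (0.701), followed by A129-17 replicate 1 (0.758). Comparisons between haploid lines are also given with these libraries left out, singly or together. The same was done for miR-465a-5p in the haploid lines against R1, singly.

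Levels below are CPM of all counted reads unless another scale is named. Each read spans a whole mature miRNA, so counts were not divided by length. Tests were run with edgeR's quasi-likelihood method on TMM-scaled counts of all features that passed the filter (757 in the fit of the 9 ESC libraries, 806 in the fit of all 12), with Benjamini-Hochberg adjustment over all of them and a threshold of 0.05.

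The 3p row had the widest range of the family. The R1 libraries held 48.1 and 55.5 CPM, the A129-2 pair 929 and 773, the A129-6 libraries 2670.4, 2419.6 and 4064, and the A129-17 pair 1241 and 3833. Spermatids held 5498, 9483 and 8998 CPM. All 7 haploid libraries were above both R1 libraries and below all 3 RS libraries, while A129-6 and A129-17 overlapped. The mean of R1 was 51.8 ± 5.22 (SD, n = 2), that of A129-2 851 ± 111 (n = 2), that of A129-17 2537 ± 1832 (n = 2), that of A129-6 3051 ± 886 (n = 3) and that of RS 7993 ± 2174 (n = 3). In this order, A129-17 did not separate from A129-6 or from A129-2 beyond the spread between its own libraries. By mean CPM the row ranked 271 of 1549 in R1, 32 to 80 in the haploid lines and 22 in RS.

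miR-465c-5p followed nearly the same course. R1 libraries held 102 and 116 CPM, A129-2 888 and 779.9, A129-6 2893, 3076 and 2657, A129-17 696 and 2658, and RS 3771, 8465 and 7007. Again every haploid library lay between R1 and RS, and A129-17 spanned the range from below A129-2 to within A129-6. The order of the means was the same, with R1 at 109 ± 10.5 CPM (SD, n = 2), A129-2 at 834 ± 76.8 (n = 2), A129-17 at 1677 ± 1387 (n = 2), A129-6 at 2875 ± 210.0 (n = 3) and RS at 6414 ± 2402 (n = 3).

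miR-465b-5p, which differs from miR-465c-5p at 1 base, had the narrowest range of the 4 in fold. R1 held 169 and 167 CPM, A129-2 263 and 294, A129-6 978, 928 and 791, A129-17 210.5 and 744, and RS 4345, 6590.1 and 5531. The haploid libraries were again all above R1, but the lowest, A129-17 replicate 1, came close to it. Its means were 168 ± 2.05 CPM for R1 (SD, n = 2), 278 ± 22.0 for A129-2 (n = 2), 477 ± 377 for A129-17 (n = 2), 899 ± 96.5 for A129-6 (n = 3) and 5489 ± 1123 for RS (n = 3). In R1 miR-465b-5p was the most abundant row of the family, ranking 178 of 1549 against 207 for miR-465c-5p and 271 for the 3p row.

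miR-465a-5p, whose only precursor is Mir465, was the scarcest of the 4 tested rows in every library. R1 held 29.3 and 23.0 CPM, A129-2 20.5 and 41.9, A129-6 112, 121 and 57.1, and A129-17 17.4 and 40.2. In RS it reached 2166, 2525 and 1319.8 CPM. A129-2 and A129-17 therefore overlapped R1, the 3 A129-6 libraries were above every other ESC library, and RS was more than an order of magnitude above every ESC library. The R1 mean was 26.2 ± 4.49 CPM (SD, n = 2), beside 31.2 ± 15.1 for A129-2 (n = 2), 28.8 ± 16.1 for A129-17 (n = 2), 96.7 ± 34.5 for A129-6 (n = 3) and 2004 ± 619 for RS (n = 3). The smallest count behind these values was 76, in A129-2 replicate 1, with an exact 95% binomial interval of 16.1 to 25.6 CPM.

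**Figure D1:**
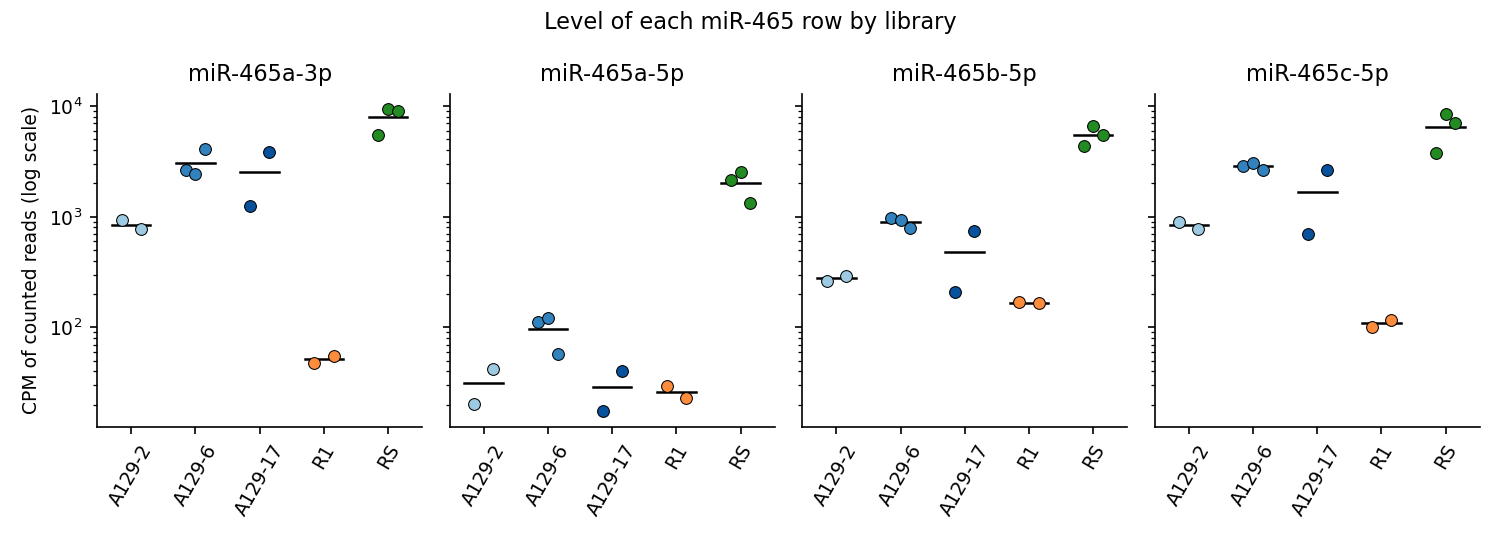
CPM of the 4 tested miR-465 rows on a shared log axis, with 1 point per library, the bar at the mean of a group, and groups coloured by line or cell type. For the 3p row and miR-465c-5p the haploid libraries sit between R1 and RS, whereas for miR-465a-5p the A129-2 and A129-17 points lie at the level of R1.

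miR-465d-5p was near the detection limit. Its 8 counts fell in 4 libraries, 5 of them in A129-17 replicate 2 (0.892 CPM) and 1 each in A129-2 replicate 1, A129-6 replicate 1 and RS replicate 1. Both R1 libraries held 0, where the limit of detection was 0.393 and 0.327 CPM and the exact 95% binomial interval reached 0.483 and 0.402 CPM. Levels of this row were not compared.

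The comparison of the haploid lines with R1 asks how the androgenetic lines differ from a diploid ESC line. Of the 4 tested rows, 3 were higher in the haploid lines, against a background of 35.3% of the 757 tested features called higher. The 3p row rose by log2 5.34 (SE 0.54, adjusted p = 4.07e-07), miR-465c-5p by 4.00 (SE 0.43, adjusted p = 9.03e-07) and miR-465b-5p by 1.69 (SE 0.37, adjusted p = 0.000848), or 40.6-fold for the first and 3.22-fold for the last. Each was higher in 7 of 7 haploid libraries than in either R1 library. miR-465a-5p differed by log2 0.90 (SE 0.40, adjusted p = 0.0564) and was not called. The median over the 4 rows was log2 2.84, beside 0.33 over all tested features. In bulk RNA, a change in the share of cells that hold a miRNA and a change in its amount per cell cannot be told apart.

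Scaling did not move the direction of any of the 4 rows against R1. Under RLE, upper-quartile and total-count scaling the median of all features was 0.08, 0.64 and 0.20, the 3p row gave log2 5.11, 5.68 and 5.18, and miR-465c-5p 3.76, 4.32 and 3.87. miR-465a-5p gave 0.64, 1.21 and 0.76 and was called under upper-quartile scaling (adjusted p = 0.0146). Over all alternatives run, its log2 difference ranged from 0.51 to 2.87, and 8 of 20 alternatives called it. Among these were the fits without A129-2 replicate 1 (1.07, adjusted p = 0.0119), without A129-6 replicate 3 (0.96, adjusted p = 0.0440) and without A129-17 replicate 1 (1.00, adjusted p = 0.0279). The male germ cell markers, nearly all miR-34c-5p in ESC, summed to 52.0 to 306 CPM in the haploid libraries and to 247 to 268 CPM in R1. In this sum 6 of 7 haploid libraries were below R1. Whether it bears on the miR-465 levels was not tested.

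The order of the differences from R1 was also the order of base composition. The GC content was 34.8% for miR-465a-5p, 36.4% for miR-465b-5p, 40.9% for miR-465c-5p and 45.5% for the 3p row. With a correction for GC content, on the 80.4% of tested features that had a sequence, all 4 rows were higher in the haploid lines, by log2 2.87, 3.46, 5.20 and 6.04 in the same order. The order was the same with the correction, and miR-465a-5p then passed edgeR's test (adjusted p = 1.87e-05). The differences of miR-465a-5p and the 3p row lay closer together with it (2.87 and 6.04) than without it (0.90 and 5.34). Whether GC content bears on the order was not tested.

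Each line was also set against R1, and these comparisons share the R1 libraries. In A129-2, 2 of 4 rows were higher (31.0% of all features): the 3p row by log2 3.95 (SE 0.53, adjusted p = 1.48e-05) and miR-465c-5p by 2.85 (SE 0.44, adjusted p = 5.52e-05). Its miR-465b-5p and miR-465a-5p differed by 0.68 (SE 0.41, adjusted p = 0.163) and 0.28 (SE 0.47, adjusted p = 0.632). In A129-6 all 4 rows were higher (35.0% of all features), by 6.15 for the 3p row, 4.89 for miR-465c-5p, 2.58 for miR-465b-5p and 1.96 for miR-465a-5p (adjusted p = 3.34e-07 to 0.00160). In A129-17, 3 of 4 were higher (34.6% of all features), by 5.92, 4.24 and 1.81 for the 3p row, miR-465c-5p and miR-465b-5p, while miR-465a-5p differed by 0.46 (SE 0.47, adjusted p = 0.397). Without A129-17 replicate 2, the library of that line with the higher levels, miR-465b-5p fell to log2 0.77 and was no longer called (adjusted p = 0.0961), and miR-465a-5p turned to -0.15. The 3p row was then at 5.02 and miR-465c-5p at 3.11, both still called. In A129-2, leaving out replicate 2 turned miR-465a-5p to -0.82 (adjusted p = 0.186).

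**Figure D2:**
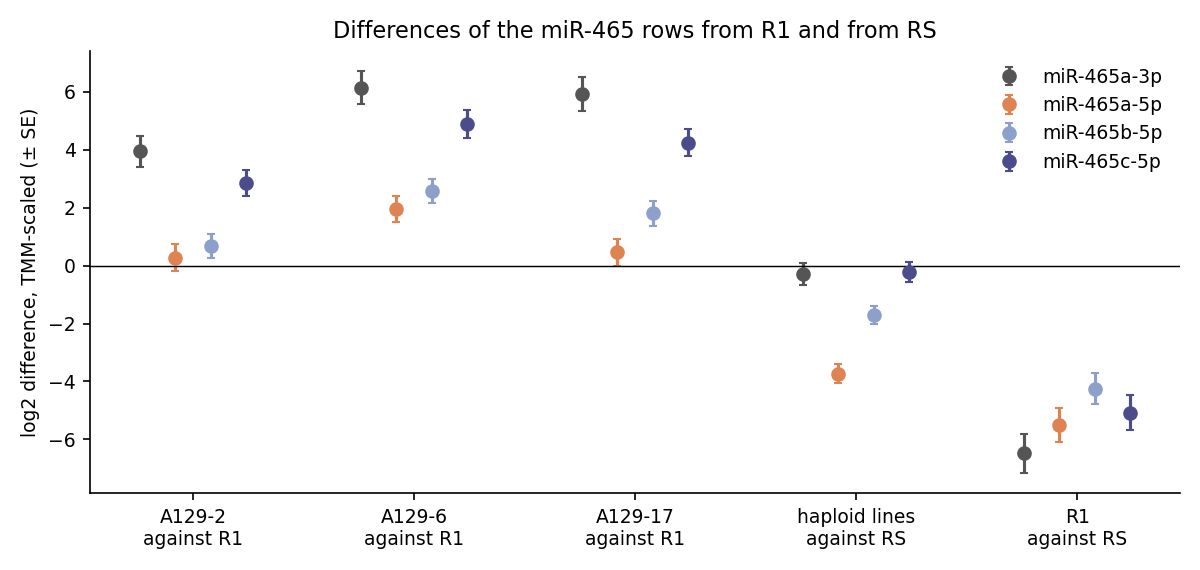
Log2 differences of the 4 tested rows with their standard errors, from edgeR on TMM-scaled counts, for each haploid line against R1, the haploid lines against RS and R1 against RS. Within every comparison of a haploid line with R1 the 3p row is highest, followed by miR-465c-5p, miR-465b-5p and miR-465a-5p.

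The haploid lines differed among themselves. An F-test over the 3 lines called all 4 rows (adjusted p = 0.0406 for the 3p row, 0.0486 for miR-465a-5p, 0.0406 for miR-465b-5p and 0.0394 for miR-465c-5p), against 29 of 757 features or 3.83%. These adjusted p-values lie close to the threshold. Leaving out A129-6 replicate 1 or A129-6 replicate 2 left 0 features and no miR-465 row past it, and the adjusted p of the 3p row then became 0.0781 and 0.0834. Without A129-2 replicate 1 the test called 9 features and no miR-465 row (0.187 for the 3p row), and without A129-2 replicate 2 it called 6 features, miR-465a-5p among them, but not the 3p row (0.144). Total-count scaling called 0 features, with 0.0915 for the 3p row. Without A129-6 replicate 3, which lay beside A129-17, the test called 80 features and again all 4 rows.

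A129-6 held more of the family than A129-2. The sum of the family was 2101 and 1888 CPM in A129-2 and 6653, 6545 and 7569.7 in A129-6, without overlap. The difference was log2 2.20 for the 3p row (SE 0.47), 1.90 for miR-465b-5p (SE 0.40) and 2.04 for miR-465c-5p (SE 0.40), each with an adjusted p of 0.0283. So 3 of 4 rows were higher, where 14 of 757 features were (1.85%). miR-465a-5p differed by 1.68 (SE 0.45, adjusted p = 0.0592) and was not called, although 3 of 3 A129-6 libraries were above both A129-2 libraries; it was called in 10 of 20 alternatives, among them each fit without 1 of the A129-17 or R1 libraries (adjusted p = 0.0192 to 0.0462). The median of the 4 rows was 1.97, beside -0.05 over all features.

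All 4 log2 differences between A129-6 and A129-2 stayed above 1 in every alternative run, but the calls did not hold. Without A129-6 replicate 3 the 3p row gave log2 1.58 (adjusted p = 0.0492), miR-465c-5p 1.82 (adjusted p = 0.0492) and miR-465b-5p 1.73 (adjusted p = 0.0576), with 13 features called in all. The fits without A129-17 replicate 1 and without replicate 2 of that line called 32 and 31 features, all 4 rows among them. Leaving out any 1 of the other 2 A129-6 libraries or of the 2 A129-2 libraries ended all 3 calls, with adjusted p-values up to 0.271 for the 3p row, as did total-count scaling and a stricter filter. The germ cell markers, again nearly all miR-34c-5p, summed to 165 and 306 CPM in A129-2 and to 52.0 to 170.5 CPM in A129-6. Their relation to the miR-465 levels was not tested.

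The A129-17 libraries stood apart from each other. Replicate 1 held 2165 CPM of the family in all, just above the A129-2 libraries, and replicate 2 held 7275, within the range of A129-6. Against A129-2, 0 of 4 rows and 0 of 757 features (0%) passed edgeR's test, with 181 features and 3 of the 4 rows at an unadjusted p under 0.05. DESeq2 called 72 features there, with the 3p row (adjusted p = 0.00484) and miR-465c-5p (adjusted p = 0.0270) among them. The 3p row differed by log2 1.97 (SE 0.48, adjusted p = 0.0528), miR-465c-5p by 1.39 (SE 0.42, adjusted p = 0.0861), miR-465b-5p by 1.13 (SE 0.41, adjusted p = 0.127) and miR-465a-5p by 0.18 (SE 0.47, adjusted p = 0.844).

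Without A129-17 replicate 1, 26 features were called between A129-17 and A129-2. Of the family, the 3p row (log2 2.58, adjusted p = 0.00560), miR-465c-5p (2.07, adjusted p = 0.00560) and miR-465b-5p (1.78, adjusted p = 0.0105) were then among them. Without A129-6 replicate 3, a library of neither line, the 3p row (2.04, adjusted p = 0.0108) and miR-465c-5p (1.45, adjusted p = 0.0426) were called among 70 features. Leaving out R1 replicate 1 called the 3p row (1.95, adjusted p = 0.0418) among 17 features, and without A129-17 replicate 2 the 3p row gave 1.15 (adjusted p = 0.211) and miR-465c-5p 0.34 (adjusted p = 0.615).

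Between A129-17 and A129-6, edgeR called 0 of 757 features (0%) and none of the 4 rows, with 123 features and 1 row at an unadjusted p under 0.05, and DESeq2 called 29 features. The row was miR-465a-5p, at log2 -1.50 (SE 0.45, adjusted p = 0.143), and DESeq2 called it lower (-1.48, adjusted p = 0.0263). The other rows differed by less, at -0.23 for the 3p row (SE 0.43), -0.77 for miR-465b-5p (SE 0.38) and -0.65 for miR-465c-5p (SE 0.38), so the 3p row could differ in either direction within its standard error. Without A129-17 replicate 2, miR-465b-5p (-1.77) and miR-465c-5p (-1.73) were called lower in A129-17, each with an adjusted p of 0.0268, among 16 features. Without A129-6 replicate 3 the 3p row gave 0.46 (adjusted p = 0.426) and 40 features were called. Without both A129-6 replicate 3 and A129-17 replicate 1, the libraries of lowest TMM factor, the 3p row was called higher in A129-17 (0.98, adjusted p = 0.0492), opposite in sign to the estimate from all libraries.

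Round spermatids were the germ cells of the study. R1 was below RS for 4 of 4 rows (19.4% of the 806 tested features were called lower): by log2 -6.48 for the 3p row (SE 0.68), -5.50 for miR-465a-5p (SE 0.59), -4.25 for miR-465b-5p (SE 0.53) and -5.08 for miR-465c-5p (SE 0.60), with adjusted p-values from 2.30e-08 to 3.20e-07. All 4 calls held in all 22 alternatives. The median of the 4 rows was -5.29, while the median of all features was 2.04 on the same scale.

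The haploid lines were closer to RS, and how close depended on the row and on the scaling. With TMM, 2 of 4 rows were lower in the haploid lines, against 20.8% of features called lower: miR-465a-5p by log2 -3.73 (SE 0.34, adjusted p = 1.40e-09) and miR-465b-5p by -1.71 (SE 0.32, adjusted p = 5.38e-05). The 3p row differed by -0.29 (SE 0.37, adjusted p = 0.492) and miR-465c-5p by -0.23 (SE 0.35, adjusted p = 0.570). On the TMM scale of all 12 libraries the 3p row averaged 3525 ± 2142 (SD over the 3 line means) in the haploid lines and 3541 ± 603 (SD, n = 3) in RS.

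Per total counts the distance was larger. TMM factors were 1.89 to 2.63 in RS and 0.469 to 1.03 in the haploid lines, and in CPM the 3p row was 3.72-fold higher in RS than the mean of the 3 haploid lines, miR-465c-5p 3.57-fold, miR-465b-5p 9.95-fold and miR-465a-5p 38.4-fold. Tested under total-count scaling, all 4 rows were lower in the haploid lines, by log2 -2.09, -2.01, -3.48 and -5.50 in that order. Upper-quartile scaling and the GC correction also called all 4 lower, and RLE called miR-465a-5p and miR-465b-5p only. The median of all features in this comparison was 2.79 with TMM and 1.29 with total counts, and the share of calls that were higher in the haploid lines was 68.1% with TMM, 46.1% with total counts, 48.6% with upper quartile and 35.0% with the GC correction. The calls of miR-465a-5p and miR-465b-5p as lower held in all 22 alternatives, while those of the 3p row and miR-465c-5p depended on the setting; without A129-17 replicate 2 miR-465c-5p was also called lower (-0.99, adjusted p = 0.0373).

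Ratios between rows within 1 library do not depend on the scaling of that library. They were not corrected for GC content, which differs between the rows. That correction moved the haploid difference from R1 from log2 5.34 to 6.04 for the 3p row and from 0.90 to 2.87 for miR-465a-5p. The 3p row held 18.5 to 95.4 counts per count of miR-465a-5p in the 7 haploid libraries, 1.64 and 2.41 in R1, and 2.54 to 6.82 in RS. Haploid libraries did not overlap with either of the others. The mean log2 ratio was 5.35 ± 0.98 (SD, n = 7) in the haploid libraries, 0.99 ± 0.39 (n = 2) in R1 and 2.01 ± 0.72 (n = 3) in RS. The haploid libraries exceeded R1 by log2 4.36, with a two-sided exact permutation p of 0.0278, the smallest that 7 against 2 libraries allow (0.0417 adjusted over the 3 comparisons of this ratio, 0.0556 over all 12 ratio tests), and exceeded RS by log2 3.35, with an exact permutation p of 0.00833, also the smallest (adjusted 0.0250 and 0.0333). R1 against RS, at log2 -1.02, gave an exact permutation p of 0.2, where 2 against 3 libraries cannot go below 0.1. The 7 haploid libraries are repeat sorts of 3 lines, with mean log2 ratios of 4.85 in A129-2, 5.02 in A129-6 and 6.36 in A129-17. The permutation tests of this and the other ratios treat these libraries as exchangeable, so their p-values do not measure the spread between lines. Because the 3p row can hold reads of 5 precursors and miR-465a-5p of 1, this ratio is not that of a single duplex.

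Against the sum of all 5p rows, which covers the same precursors together with Mir465d, the 3p row was nearer to balance. A129-2 gave ratios of 0.793 and 0.693, A129-6 of 0.670, 0.587 and 1.16, and A129-17 of 1.34 and 1.11. R1 gave 0.160 and 0.181, the lowest of all libraries, and RS 0.535, 0.539 and 0.649. R1 was thus the group with the largest excess of 5p counts, and A129-6 replicate 3 again lay with the A129-17 libraries. The haploid libraries exceeded R1 by log2 2.35 (exact permutation p = 0.0278, the smallest possible) and RS by 0.60 (exact permutation p = 0.0417), and with adjustment over the 12 ratio tests made these became 0.0556 and 0.0714.

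The makeup of the 5p arm also differed. miR-465c-5p made up 69.9% to 77.2% of 5p counts in the haploid libraries, 33.8% and 38.0% in R1 and 36.7% to 50.6% in RS. In R1 miR-465b-5p led with 56.4% (exact 95% binomial interval 54.4 to 58.5) and 54.4% (52.6 to 56.3). miR-465a-5p contributed 1.17% to 3.75% in the haploid libraries, 9.77% and 7.52% in R1 and 9.52% to 21.1% in RS. The shares of the 3 haploid lines were close to one another, with means for miR-465c-5p of 72.9% ± 4.17 (SD, n = 2) in A129-2, 74.3% ± 1.60 (n = 3) in A129-6 and 76.3% ± 1.33 (n = 2) in A129-17, although the total level of the family differed between them.

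**Figure D3:**
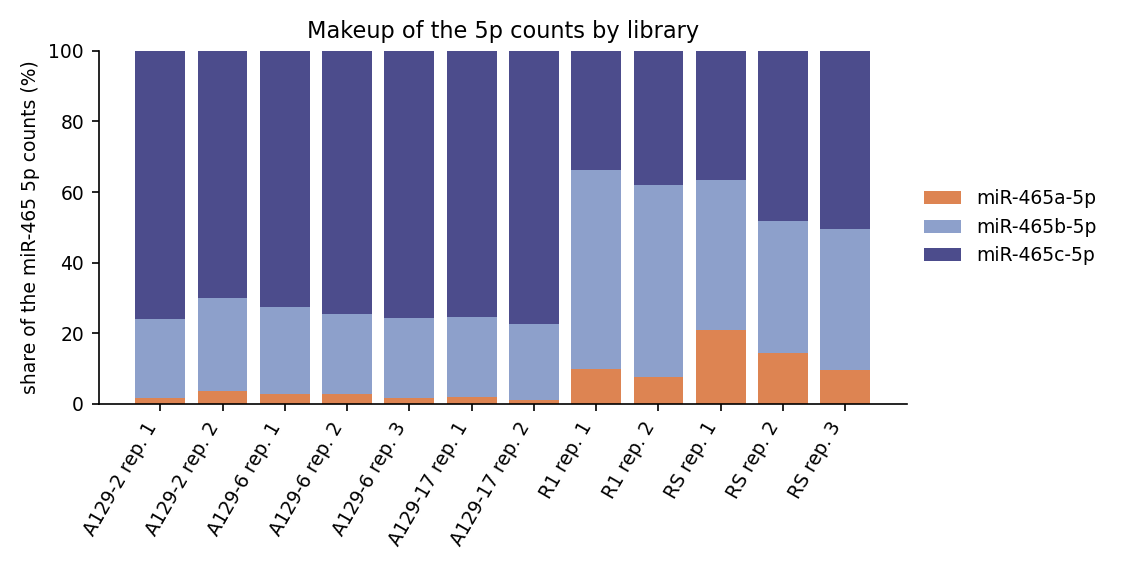
Share of each 5p row in the 5p counts of the family, in percent, with 1 stacked bar per library. In all 7 haploid libraries miR-465c-5p takes 69.9% or more, while in R1 miR-465b-5p is the largest part and in RS miR-465a-5p takes up to 21.1%.

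Expressed as a ratio, miR-465c-5p over miR-465b-5p was 2.65 to 3.57 in the haploid libraries, 0.599 and 0.699 in R1 and 0.868, 1.28 and 1.27 in RS. Their log2 ratio was higher in the haploid libraries than in R1 by 2.31 (exact permutation p = 0.0278, 0.0556 over 12 tests) and than in RS by 1.52 (exact permutation p = 0.00833, 0.0333 over 12 tests). For miR-465a-5p over miR-465b-5p, the log2 difference of the haploid libraries was -1.96 from RS (exact permutation p = 0.00833, 0.0333 over 12 tests) and -0.76 from R1 (exact permutation p = 0.139). These ratios were chosen after the data had been seen, and that of miR-465c-5p to miR-465b-5p rests on the assignment of reads that differ at 1 base.

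**Figure D4:**
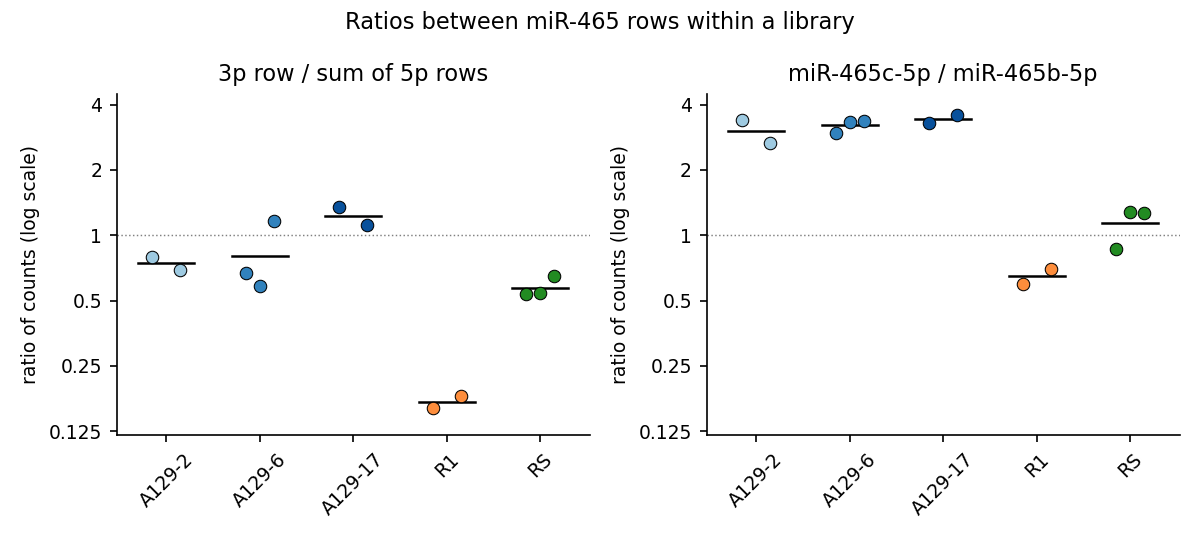
Ratio of the 3p row to the sum of the 5p rows (left) and of miR-465c-5p to miR-465b-5p (right) per library on a log axis, with the bar at the mean of a group and a dotted line at equal counts. R1 is lowest in both panels, and the 7 haploid libraries lie above RS on the right, from 2.65 to 3.57.

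The rows differed in how far they moved together. Over the 12 libraries, the log2 TMM-normalised CPM of the 3p row and of miR-465c-5p had a Pearson correlation of 0.99, the 3p row and miR-465b-5p 0.87, and the 3p row and miR-465a-5p 0.61. miR-465a-5p was nearest to miR-465b-5p, at 0.90. Within the 9 ESC libraries the same pairs gave 0.98, 0.87, 0.60 and 0.88. These values describe libraries that fall into groups and share their depth and scaling between rows, and no test was made of them.

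Outside the family, the patterns most like the 3p row and miR-465c-5p belonged mostly to miRNAs of the same X-linked cluster. Among 571 features with a mean of at least 10 CPM in some group, the 5 nearest to the 3p row over 12 libraries were miR-871-3p (r = 0.99), miR-743a-5p (0.97), miR-878-3p (0.96), miR-470-5p (0.96) and let-7c-5p (0.95). The 5 nearest to miR-465c-5p were the same features, led by miR-743a-5p (0.98). In the 9 ESC libraries, with 508 candidates, miR-184-3p (0.98) took the place of let-7c-5p for the 3p row, and miR-743a-3p (0.99) for miR-465c-5p.

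A list of 13 other miRNAs of the cluster was taken, all within 62.31 kb of Mir465. The table held 24 rows for them, of which 19 passed the filter in the ESC fit. Against R1, 13 of the 19 were higher in the haploid lines (35.3% of all features), 4 were lower (also 35.3% of all features) and 2 were not called, with a median of log2 1.94 beside 0.33 over all features. The 3 with the highest mean log2 CPM were miR-470-5p, miR-871-3p and miR-881-3p. miR-470-5p rose by log2 5.72 (SE 0.49), from a mean of 61.1 ± 0.982 CPM (SD, n = 2) for R1 to 1551 ± 52.9 for A129-2 (n = 2), 5164 ± 278 for A129-6 (n = 3) and 3102 ± 2393 for A129-17 (n = 2), and RS held 4293 ± 685 (n = 3). miR-871-3p rose by log2 5.22 (SE 0.52) and miR-881-3p fell by 1.06 (SE 0.31, adjusted p = 0.00721), from 681 ± 8.48 CPM in R1 to 229 ± 32.8, 503 ± 148 and 238 ± 191 in the lines, while RS held 103849 ± 62814.

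The 4 lower rows were miR-881-3p, miR-463-3p, miR-463-5p and miR-471-5p. With the GC correction 16 of 19 were called higher and 0 lower, and upper-quartile scaling left 2 lower. RLE scaling, total-count scaling and DESeq2 each left 4 lower, and the replicate block left 3. The fit of all 12 libraries left 2 of 20 tested rows lower, and the stricter filter 1 of 15. Among these cluster rows the arms of 1 precursor could differ, which the shared 3p row cannot show for a single miR-465 precursor. For miR-871 the 3p arm was at log2 5.22 and the 5p arm at 0.80 (SE 0.50, adjusted p = 0.162), and for miR-878 they were at 5.22 and 1.11 (SE 0.32, adjusted p = 0.00691).

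**Figure D5:**
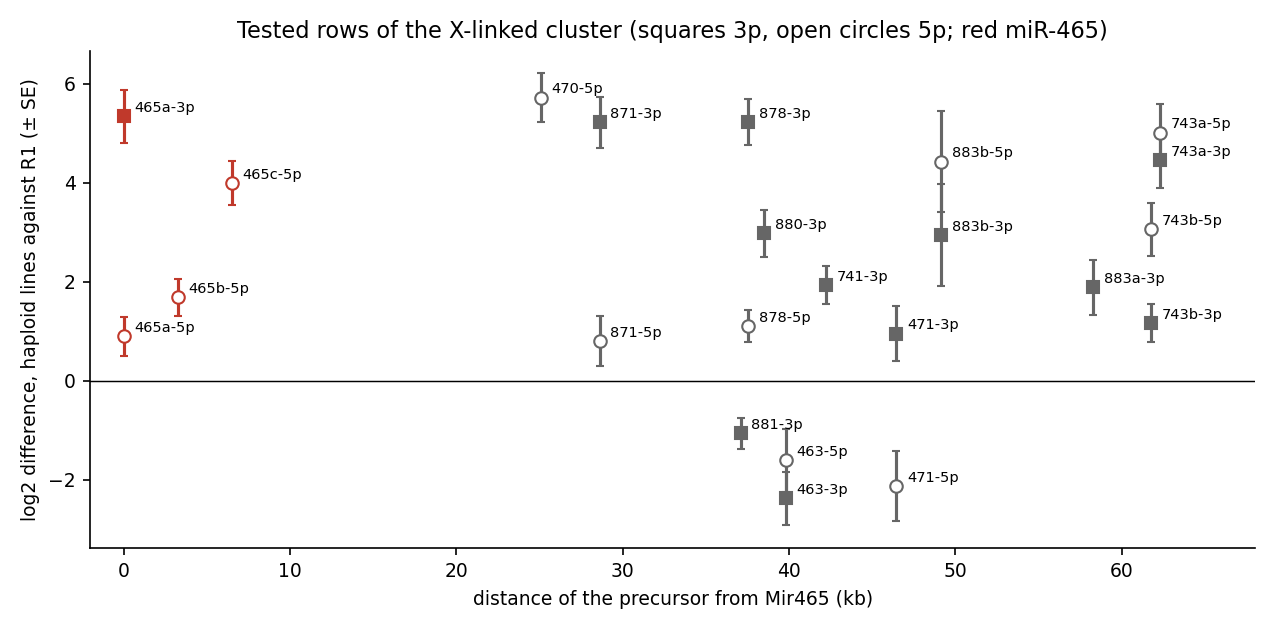
Log2 difference of the haploid lines from R1 with its SE (edgeR, TMM) for the tested rows of the X-linked cluster, against the distance of the precursor from Mir465 in kb; squares are 3p rows, open circles 5p rows, and red marks miR-465. The 3p row, which 5 precursors can feed, is drawn at Mir465, and miR-465b-5p and miR-465c-5p at the copy nearest to it. Near the middle of the plotted stretch, 4 rows lie below 0.

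Between the lines and in RS, the cluster gave counts of the same kind. In A129-6 against A129-2, 8 of 19 cluster rows were higher (1.85% of all features) and 0 lower (median log2 1.66), but without A129-6 replicate 3 that count was 2, and without any 1 of the other A129-6 or A129-2 libraries 0. The F-test over the lines called 5 of 19 (3.83% of all features). That count was 0 with total-count scaling, the stricter filter and the fit of all 12 libraries, and also without A129-2 replicate 1, A129-2 replicate 2, A129-6 replicate 1 or A129-6 replicate 2. It was 8 without A129-6 replicate 3, 11 without A129-17 replicate 1, 13 without A129-17 replicate 2 and 8 without R1 replicate 1. Against RS, with 20 rows tested, 17 were lower in the haploid lines (20.8% of all features) and 1 higher (44.5% of all features; miR-470-5p, log2 1.19, SE 0.39, adjusted p = 0.00984), with a median of -3.24 beside 2.79 over all features; under RLE, upper-quartile and total-count scaling 0 were higher. R1 was lower than RS in 20 of 20 (19.4% of all features), with a median of -6.28.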

How the data were processed

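Libraries were made with a small RNA kit by adapter ligation, PCR and size selection, per the labels' protocols, and read from one end. The deposited table holds raw read counts per miRNA for the 12 libraries; Bowtie 0.12.9 and DESeq2 are named per the submitters' processing notes, with no role stated. Genome build, miRBase release, mismatches, multiple matches and strand use are not given in the sources used here, and they decide how reads of near-identical members were split. The tests used edgeR 4.0.16 (R 4.3.3, limma 3.58.1): filterByExpr by group (minimum count 10, minimum total 15), TMM scaling, quasi-likelihood F-tests with Benjamini-Hochberg adjustment at 0.05, the haploid lines weighing equally. ESC comparisons used the 9 ESC libraries, comparisons with RS all 12. Correlations used log2 CPM with a prior count of 2. Ratios used counts plus 0.5 and exact permutation tests over libraries. Sequences and coordinates are RefSeq's (GRCm38.p6). DESeq2 1.42.0 was an alternative, beside scalings, filters, a GC correction, a replicate block and each library left out.

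The members, the cluster list, the markers and the tests were chosen with earlier results of these data known. The named features were all rows of the family, the 5 features most like the 3p row and like the most abundant 5p row, and the 3 cluster rows of highest mean log2 CPM; the 4 lower cluster rows and the arms of miR-871 and miR-878 were named after their values were seen. The replicate numbers were shared between groups without a label that ties same-numbered samples together. All replicate pairs differed by more than sampling noise. The test code was checked on simulated counts.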

Additional observations from a re-analysis of the deposited data

Results flagged for a closer look

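The 4 tested members stand here for 1 reason, a tested difference in level between haploid lines grown under the same protocol, relative to R1. In edgeR's F-test over the 3 lines the adjusted p was 0.0406 for miR-465a-3p, 0.0486 for miR-465a-5p, 0.0406 for miR-465b-5p and 0.0394 for miR-465c-5p. A129-6 was highest in mean CPM for all 4. The F-test called 29 of 757 features.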

How the results depend on the processing

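Over 816 alternative values of the members' 40 results, 700 kept direction and side of the threshold, 51 lost the call, 51 gained it and 14 changed sign. The calls of miR-465a-3p and miR-465c-5p against R1, in the haploid lines together and in each line, and all 4 calls of R1 against RS held in every alternative run. The comparisons between lines did not. Features called for A129-6 against A129-2 (18) became 2 with total-count scaling, 42 with DESeq2, 41 with no filter, 1 with a stricter filter, 8 in the fit of all 12 libraries and 37 without A129-6 replicate 3 and A129-17 replicate 1, the libraries of lowest TMM factor (chosen after seeing the data), and ranged from 0 to 32 with each library left out in turn. For A129-17 against A129-2 (0) they were 13 with RLE, 5 with upper quartile, 72 with DESeq2, 60 with no filter, 13 with TMM without the miR-290 cluster, 19 with the GC correction, 100 without those 2 libraries and 0 to 70 by library. For A129-17 against A129-6 (0) they were 29 with DESeq2, 18 with no filter, 45 without those 2 and 0 to 40 by library. For the F-test (29) they were 0 with total counts, 90 with DESeq2, 82 with no filter, 3 with the stricter filter, 2 in the fit of all 12, 89 without those 2 and 0 to 80 by library. In each case the cause was not tested.

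The replicate block gave 70 features for A129-17 against A129-2, 34 for A129-17 against A129-6 and 72 for the F-test. Same-numbered ESC libraries did not deviate together (r from -0.18 to 0.14 over 12 pairs, 2 of 9 libraries nearest to their own number). In a group of 2 libraries the deviations from the group mean mirror each other, so these pairs are not independent. Whether same-numbered samples share a batch cannot be decided this way.

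Signs changed as follows. miR-465a-5p ranged from -0.82 to 0.84 by library in A129-2 against R1, from -0.15 to 0.86 in A129-17 against R1 and from -0.42 to 1.25 in A129-17 against A129-2, where total-count scaling gave -0.12. In A129-17 against A129-6, miR-465a-3p gave 0.29 with the replicate block, 0.98 without the 2 libraries (called, adjusted p = 0.0492) and -1.09 to 0.46 by library, miR-465b-5p gave 0.031 without the 2, and miR-465c-5p 0.22 without the 2 and -1.73 to 0.00087 by library. In the haploid lines against RS, miR-465c-5p ranged from -0.99 to 0.043 by library. The log2 ratio of miR-465a-3p to miR-465a-5p, haploid against R1, ranged from 4.08 to 4.64; with 1 R1 library its exact permutation p was the smallest possible and above the threshold. miR-465d-5p was near or below the limit of detection in all libraries, and that limit was higher in RS than in ESC.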
